A study of Dunaliella salina with 18 samples.

Results

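Dunaliella salina is a green alga that lives in brines of widely varying salinity. Its cells have no rigid wall, so they swell or shrink when the salinity outside changes, and they are known for balancing it by making or removing glycerol inside the cell. A change of salinity is therefore a change of both cell volume and metabolism.

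The set described here holds 15 of 43236 assembled transcripts, those that stayed higher in the L2H arm than in the H2L arm at every time sampled. They were chosen by their abundance in these same libraries. The lowest of the 3 group means in L2H (0h, 4h and 24h) had to be at least 5 and at least 2 times the highest of the 3 group means in H2L, and transcripts with a mean of 1000 or more over the 18 libraries were left out, which removed none that met the other conditions. All differences between the arms given below were thus fixed by the choice and are descriptions without a test.

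The study sequenced total RNA from cultured cells of strain CCAP 19/3, with 3 libraries in each of 6 groups, the H2L and L2H arms at 0h, 4h and 24h. The titles name the arms H2L and L2H, while the condition field calls the H2L samples a change from low to high salt and the L2H samples the opposite. The arms are therefore called by their titles, and no direction or salt concentration is given to either. The strain is the same in all groups, and no other treatment is named. Whether the 3 libraries of a group came from separate cultures is not stated, so each p-value covers the variation among libraries, part of which may be technical.

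The deposited values are an abundance signal with decimals, not read counts, and the sources used here do not give its scaling. Library totals lay between 749880 and 842410, and read numbers are not known, so no counting interval can be given. Libraries 1 and 2 of both arms carry the same title tags, and the third library carries a tag of its own in each arm. In the third libraries the arm and the tag cannot be told apart, the meaning of the tags is not stated, and the tags also differ between 24h and the earlier times. Library 3 of L2H at 0h and 4h went against libraries 1 and 2 in most members, and results that rest on it are given with and without it. The transcript identifiers come without gene names, and a lookup in the reference table of strain CCAP 19/18 returned 0 matches, so the members are named by identifier and have no known role here.

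The conditions narrowed the table steeply. In 15092 transcripts the lowest L2H group mean was at least 5 and the overall mean below 1000. Of these, 337 were at least 2-fold higher in L2H than in H2L at 0h, 1108 at 4h and 296 at 24h. All 3 conditions held together in 25 transcripts, and 15 of them also passed when the lowest L2H mean was set against the highest H2L mean, whatever the times. The same rule with the arms exchanged gave 49 transcripts, from 63 that were at least 2-fold higher in H2L at each time.

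The members were low to moderate in abundance. Their mean over the 9 L2H libraries ran from 7.73 to 34.1, with a median of 13.8, and their mean over the 9 H2L libraries from 1.46 to 9.79, with a median of 3.73. Summed over the 15 transcripts, the signal was 181, 171 and 299 in the 3 L2H libraries at 0h, 295, 298 and 212 at 4h, and 230, 217 and 186 at 24h. In H2L the sums were 69.5, 57.2 and 115 at 0h, 43.2, 45.1 and 71.0 at 4h, and 61.1, 58.6 and 84.9 at 24h. Every L2H sum was above every H2L sum. As a percentage of the library total they ran from 0.0219 to 0.0397 in L2H and from 0.00523 to 0.0146 in H2L. These are sums of the deposited signal of bulk cultures, in which fewer cells with a transcript and less of it per cell cannot be told apart. Within L2H the third library had the highest sum at 0h and the lowest at 4h and 24h, and within H2L the third library had the highest sum at each time.

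Most members stood close to the limit of the rule. The lowest L2H mean was between 2.03 and 2.998 times the highest H2L mean, with a median of 2.24, and for 6 members this ratio was under 2.2. The members just inside the 2-fold limit were c45247_g1_i1, at 6.03 against 2.97, and c34990_g1_i1, at 8.50 against 4.12. Just outside it lay c50473_g2_i1, at 21.1 against 10.7 or 1.98-fold, and c43510_g1_i2, at 24.2 against 12.4 or 1.95-fold. At the minimum of 5, c45247_g1_i1 and c42998_g2_i1 were just inside, with lowest L2H means of 6.03 and 6.19, and c48026_g11_i1 and c60415_g1_i1 were just outside, with 4.55 and 4.07. The edge of the set is thus a limit drawn through a continuous range.

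**Figure D1:**
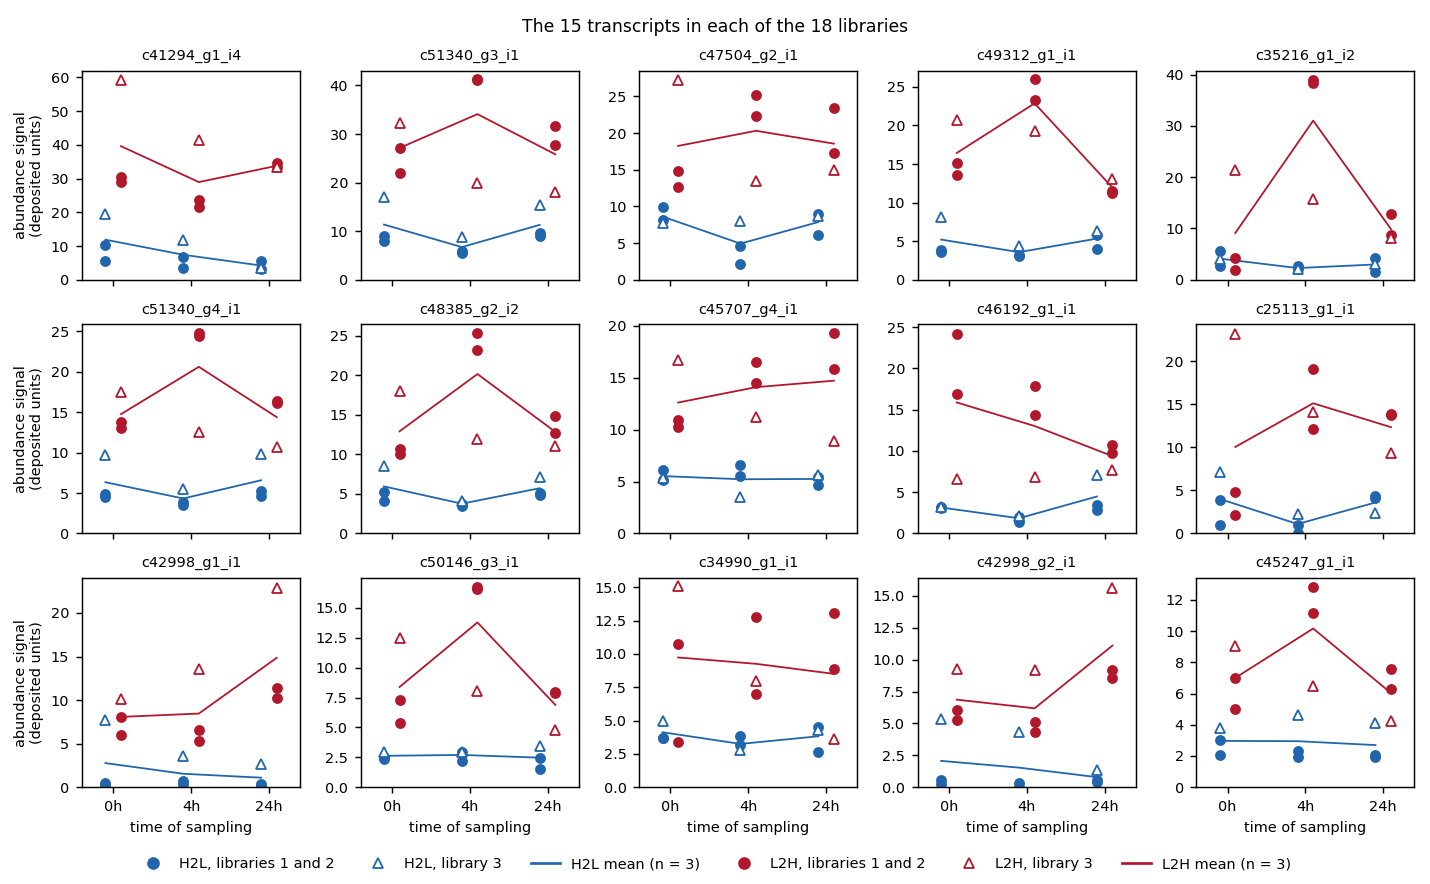
Abundance signal of each of the 15 transcripts (vertical axes from 0, deposited units) against time of sampling, in H2L (blue) and L2H (red). Filled circles are libraries 1 and 2, open triangles the third library, and lines join the group means (n = 3). The red lines lie above the blue lines in all 15 panels, since the rule chose them so. At 0h, L2H points of c35216_g1_i2 (1.82 and 4.22) and c25113_g1_i1 (4.85 and 2.17) fall among or below the H2L points. In c42998_g1_i1, c42998_g2_i1 and c34990_g1_i1 an L2H point at 0h also lies below an H2L point at 0h.

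In 8 of the 15 members every L2H library lay above every H2L library, which held for 0.363% of the 34166 transcripts that passed the filter on low values (3 or more libraries at 1 or higher). All 15 members passed that filter. The 8 members were c41294_g1_i4, c51340_g3_i1, c51340_g4_i1, c47504_g2_i1, c49312_g1_i1, c48385_g2_i2, c45707_g4_i1 and c50146_g3_i1. Because the rule used the same means, this count adds no evidence. In libraries 1 and 2 alone the arms did not overlap in 12 members, against 2.52% of the transcripts tested, and in the third libraries alone in 12 members, against 9.69%.

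The most abundant member, c41294_g1_i4, gave 29.0, 30.6 and 59.2 in L2H at 0h, 21.7, 23.6 and 41.6 at 4h and 34.7, 33.4 and 33.4 at 24h. In H2L it gave 10.4, 5.60 and 19.6 at 0h, 6.86, 3.46 and 11.9 at 4h and 5.67, 3.30 and 3.62 at 24h. The third library was the highest at 0h and 4h in both arms, and at 24h the 3 libraries of each arm lay close together. The ratio of the arm means at the same time went from 3.34 at 0h to 3.91 at 4h and 8.05 at 24h.

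The transcript c51340_g3_i1 gave 21.9, 27.2 and 32.3 in L2H at 0h, 41.3, 41.0 and 19.99 at 4h and 31.6, 27.8 and 18.1 at 24h. In H2L it gave 9.02, 7.98 and 17.1 at 0h, 5.92, 5.48 and 8.76 at 4h and 9.65, 8.93 and 15.3 at 24h. The arms did not overlap, but the lowest L2H value (18.1) and the highest H2L value (17.1) both came from library 3 and nearly met. In the third libraries alone the ratio of the arms was 1.89 at 0h, 2.28 at 4h and 1.18 at 24h, against 2.89, 7.22 and 3.20 in libraries 1 and 2. The neighbouring c51340_g4_i1, which shares the first part of its identifier, behaved alike at a lower level, with 13.0, 13.8 and 17.4 in L2H at 0h and 24.4, 24.8 and 12.6 at 4h.

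The transcripts c49312_g1_i1 and c47504_g2_i1 also separated the arms in every library. The first gave 15.1, 13.6 and 20.6 in L2H at 0h, 26.0, 23.3 and 19.3 at 4h and 11.5, 11.3 and 13.1 at 24h, while its 9 H2L values ran from 3.12 to 8.18 with a median of 3.98. The second gave 12.6, 14.9 and 27.3 at 0h, 22.3, 25.2 and 13.5 at 4h and 23.4, 17.3 and 14.9 at 24h in L2H. Its H2L values were 9.98, 8.12 and 7.75 at 0h, 2.16, 4.64 and 7.98 at 4h and 6.05, 8.91 and 8.64 at 24h. The narrowest gap of c47504_g2_i1 lay between 2 first libraries at 0h, 12.6 in L2H and 9.98 in H2L.

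Of the remaining members whose arms did not overlap, c48385_g2_i2 ranged from 10.1 to 25.4 in L2H with a median of 12.7 and from 3.43 to 8.53 in H2L with a median of 4.85. The transcript c45707_g4_i1 ranged from 8.90 to 19.3 (median 14.5) in L2H and from 3.55 to 6.57 (median 5.45) in H2L. The transcript c50146_g3_i1 ranged from 4.79 to 16.7 (median 7.99) in L2H and from 1.5 to 3.46 (median 2.52) in H2L. The lowest L2H value of the last 2 came from the third library at 24h, and that of c48385_g2_i2 from the first library at 0h.

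The pair with the widest ratio was c42998_g1_i1 and c42998_g2_i1, with lowest L2H means 2.92 and 2.998 times their highest H2L means. The first gave 8.08, 6.02 and 10.1 in L2H at 0h, 5.26, 6.53 and 13.6 at 4h and 10.3, 11.4 and 22.9 at 24h. In H2L it gave 0.10, 0.49 and 7.71 at 0h, 0.72, 0.31 and 3.59 at 4h and 0.41, 0.21 and 2.65 at 24h. The H2L arm was thus under 1 in its 6 first and second libraries and well above 1 in library 3 at all 3 times. The second transcript had the same shape, with H2L values of 0.55, 0.28 and 5.36 at 0h, 0 (listed), 0.29 and 4.31 at 4h and 0.44, 0.58 and 1.34 at 24h, and L2H values from 4.29 to 15.6. In libraries 1 and 2 the ratio of the arms for c42998_g1_i1 was 23.9 at 0h, 11.4 at 4h and 35.0 at 24h, and in the third libraries it was 1.31, 3.78 and 8.63. Most H2L values here are near the low end of the table, so the larger ratios are imprecise. The rule's ratio for this pair rests on the third H2L library at 0h, which set the highest H2L mean.

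In 7 members at least 1 L2H library fell within the H2L range, the c42998 pair among them. The transcript c35216_g1_i2 gave 1.82, 4.22 and 21.3 in L2H at 0h and 5.59, 2.73 and 4.04 in H2L at 0h. Libraries 1 and 2 at 0h therefore showed no excess in L2H, with a ratio of 0.726, and the third library alone, with a ratio of 5.28, lifted the mean past the rule. The transcript c25113_g1_i1 was similar, with 4.85, 2.17 and 23.1 in L2H at 0h against 3.94, 0.98 and 7.10 in H2L. For both transcripts the arms did not overlap at 4h or 24h.

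The transcript c46192_g1_i1 had its excess mainly in the first and second libraries, which gave 24.2 and 16.9 at 0h, 17.9 and 14.3 at 4h and 9.75 and 10.7 at 24h in L2H. The third L2H library gave 6.54, 6.85 and 7.64 at those times. In H2L the values ran from 1.38 to 7.11, and the highest was the third library at 24h, so the third libraries of the arms overlapped across times. The transcripts c34990_g1_i1, from 3.39 to 15.1 in L2H and from 2.67 to 4.96 in H2L, and c45247_g1_i1, from 4.23 to 12.8 in L2H and from 1.91 to 4.63 in H2L, overlapped by 2 and 1 L2H libraries.

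**Figure D2:**
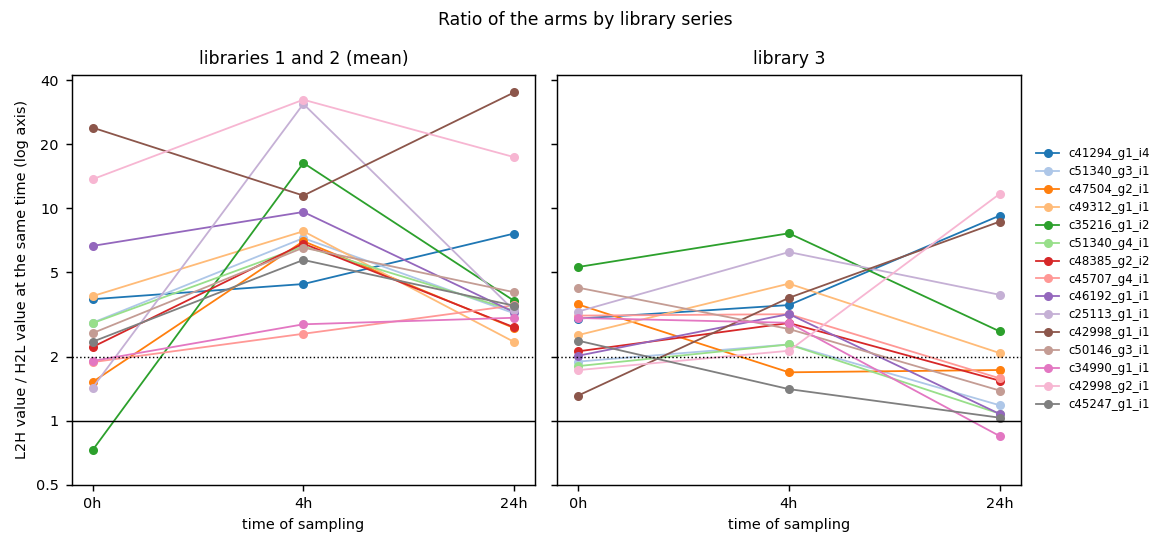
Ratio of the L2H value to the H2L value at the same time (log axis) for each of the 15 transcripts, from the mean of libraries 1 and 2 (left) and from library 3 alone (right). The solid line marks 1 and the dotted line 2. In libraries 1 and 2 all 15 ratios were at least 2 at 4h and at 24h, and in the third libraries 13 were at 4h and 6 at 24h.

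The size of the difference depended on the library series. Averaged over the 3 times, the ratio of L2H to H2L was larger in libraries 1 and 2 than in the third library in all 15 members, with medians of 4.29 and 2.53. It was at least 2 in 15 members in libraries 1 and 2 and in 11 in the third library. By time, the ratio in libraries 1 and 2 was at least 2 in 10 members at 0h, 15 at 4h and 15 at 24h. In the third libraries it was at least 2 in 11 members at 0h, 13 at 4h and 6 at 24h, and at 24h it fell below 1 for c34990_g1_i1, at 0.845. When the rule was applied to libraries 1 and 2 alone it found 29 transcripts, 9 of them members, and when applied to the third libraries alone it found 21, none of which was a member. Without library 3 of L2H at 0h and 4h it found 7, all of them members.

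Since each arm moved to a new salinity, the start of one arm was also set beside the end of the other. The L2H mean at 24h was 2.03 to 5.38 times the H2L mean at 0h, with a median of 2.39. The L2H mean at 0h was 2.24 to 9.44 times the H2L mean at 24h, with a median of 2.79. Both follow from the rule, which bounds every pair of group means. The highest H2L mean was at 0h in 11 members, at 24h in 3 and at 4h in 1, and the lowest L2H mean was at 24h in 8, at 0h in 5 and at 4h in 2.

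How the members moved inside each arm was not used by the rule as a comparison, although it bounds the means at each time. Limma was fitted to log2(value + 1) over all 34166 transcripts and 18 libraries, and a call needed an adjusted p under 0.05 (Benjamini-Hochberg over all transcripts tested). Fold changes on this scale understate the change of low transcripts. In the L2H arm between 0h and 4h, 1 of 15 members was called, against 2.24% of all tested transcripts. It was c35216_g1_i2, which went from 1.82, 4.22 and 21.3 at 0h (9.12 ± 10.6, mean ± SD, n = 3) to 38.4, 38.9 and 15.8 at 4h (31.0 ± 13.2). The third library was the highest at 0h and the lowest at 4h, so the groups overlapped. The log2 change was 2.11 with SE 0.54 and adjusted p = 0.0495, at the edge of the threshold. The call was lost under 20 of 27 alternatives, among them 16 of the 18 fits that each left out 1 library, and it was kept without library 3 of L2H at 0h or at 4h. Over all transcripts the calls in this comparison fell too, from 765 to 0 without H2L 0h library 2 and to 3 without H2L 24h library 1. They were 843 without H2L 0h library 3. Those at an unadjusted p under 0.05 changed less, from 6213 to 6013, 6006 and 6449. The losses are thus not particular to c35216_g1_i2, and the 2.24% is unstable as well. For c35216_g1_i2 the adjusted p was 1.83e-05 without library 3 of L2H at 0h and 4h, where the log2 change was 3.37. It was 0.93 when the mean of libraries 1 and 2 stood for 1 sample, where the change was 1.48. That fit called 0 of the 34166 transcripts in this comparison, and 1810 were at an unadjusted p under 0.05. Library 3 at 0h brought c35216_g1_i2 into the set, so its low start without that library follows from the choice. By 24h the transcript stood at 12.8, 8.64 and 8.07 in L2H, and its log2 difference from 0h was 0.63 (SE 0.54, adjusted p = 0.617).

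None of the other changes from 0h was called in any member with all 18 libraries. Limma called 0 of 15 between H2L 0h and 4h, against 12.0% of transcripts tested, 0 between H2L 0h and 24h, against 7.68%, and 0 between L2H 0h and 24h, against 1.39%. At an unadjusted p under 0.05 the numbers of members were 1, 1 and 0. The standard errors of the log2 changes ran from 0.24 to 0.65 across the members, and a p that misses the threshold does not show that a member was constant. In H2L the lowest adjusted p was 0.125 at 4h, for c47504_g2_i1, whose log2 change was -0.82 (SE 0.33). At 24h it was 0.0828, for c41294_g1_i4, with a log2 change of -1.18 (SE 0.40) from 10.4, 5.60 and 19.6 to 5.67, 3.30 and 3.62.

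**Figure D3:**
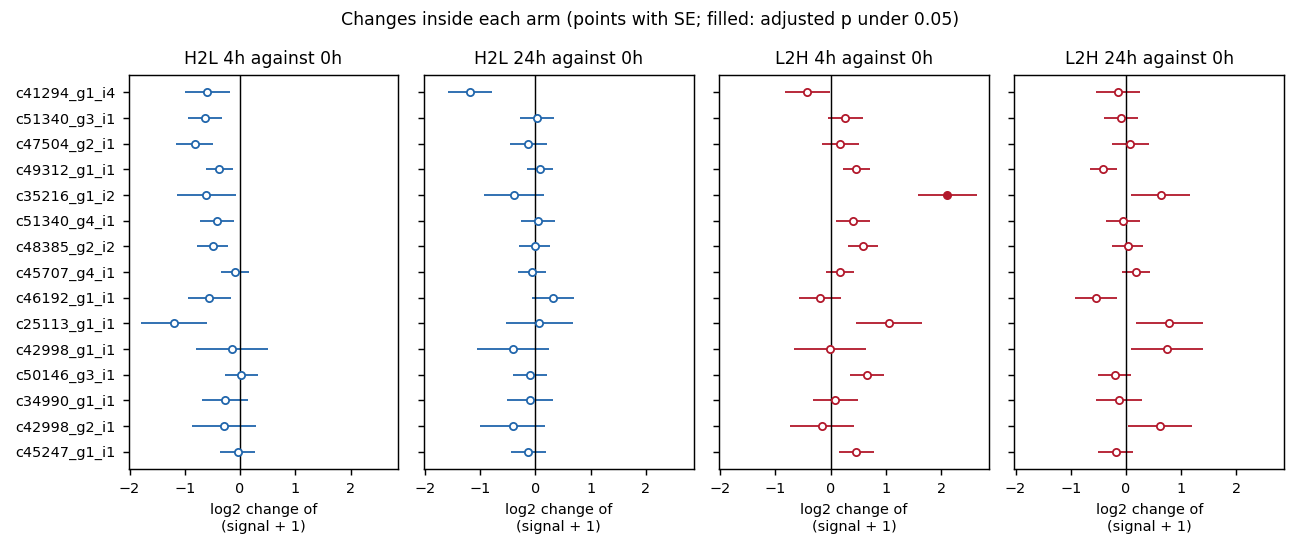
Log2 change of (signal + 1) from 0h at 4h and 24h in H2L (blue) and L2H (red) for each member, with the standard error from limma. Only c35216_g1_i2 in L2H at 4h is filled, the mark for an adjusted p under 0.05, and 14 of 15 points lie below 0 in H2L at 4h.

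The signs of the changes were uneven at 4h, counting the called c35216_g1_i2 among the 15 members. The median log2 change of the members was -0.41 in H2L at 4h, where the median over all transcripts tested was 0.04, and 14 of 15 members were below 0. In L2H at 4h the median was 0.26, against -0.003 over all tested, and 11 members were above 0. At 24h the medians were -0.10 in H2L and -0.05 in L2H, against -0.02 and 0.04. The difference between the arms in the 4h change (L2H change minus H2L change, an interaction contrast) was above 0 in all 15 members, with a median of 0.64 against -0.05 over all tested. The arms share no library in this contrast, but the rule limits the groups it is made of, so the count is a description. The rule also bounds the means behind the sign counts inside each arm. The shares of all transcripts with each sign were not counted, so those counts are descriptions too.

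That interaction was called for 1 of 15 members, against 10.2% of transcripts tested. It was again c35216_g1_i2, with a log2 difference of 2.72 (SE 0.76, adjusted p = 0.0313). The rule used the same 4 group means, so this p is no independent evidence. In H2L this transcript gave 5.59, 2.73 and 4.04 at 0h and 2.60, 2.14 and 2.08 at 4h, so the 4h libraries all lay below the 0h libraries there, and its log2 change in H2L, -0.61, was not called (adjusted p = 0.511). The interaction was not called without any one of 8 libraries (H2L 0h library 1 or 3, or library 1 or 2 of H2L 4h, L2H 0h or L2H 4h), with adjusted p of 0.0521 to 0.0823, nor with libraries 1 and 2 averaged (0.342). The averaged fit called 14 of all 34166 transcripts in this contrast, against 3484 with all 18 libraries, so the 10.2% fell too. For the 24h change the interaction was called in 0 of 15 members, against 6.44%, and its members ranged from -0.87 for c46192_g1_i1 to 1.15 for c42998_g1_i1, with 0 at an unadjusted p under 0.05. These are the counts with all 18 libraries. With L2H 0h library 3 alone left out, the 24h interaction was called for 1 member, c35216_g1_i2, which that library had brought into the set.

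The third L2H libraries ran against the other libraries in the members. At 0h the third L2H library was above both others in 14 of 15 members, which was so in 37.6% of transcripts tested, and at 4h it was below both others in 10, against 44.6%. In 11 members the value at 4h was above that at 0h in libraries 1 and 2 and below it in the third, against 22.5% of transcripts tested. At 24h the third L2H library was below both others in 12 members, against 46.5%. In H2L the third library was above both others in 12 members at 0h, 11 at 4h and 10 at 24h, against 37.7%, 27.7% and 34.2%. The part of these library differences in the results above was not tested beyond the fits without those libraries. The rule used the L2H mean at 0h, so a high library 3 at that time helped a transcript into the set. Without L2H 0h library 3 the rule found 9 transcripts, all of them members. The counts of 14 at 0h and of 11 with opposite changes are therefore partly fixed by the choice. All counts in this paragraph are descriptions, and the shares of all transcripts are no test of them.

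In libraries 1 and 2 alone limma called 9 of 15 members between L2H 0h and 4h, all higher at 4h, against 25.6% of transcripts tested. They were c35216_g1_i2, with a log2 change of 3.37 (SE 0.40, adjusted p = 0.000203), c25113_g1_i1 with 1.91, c50146_g3_i1 with 1.28, c48385_g2_i2 with 1.15, c45247_g1_i1 with 0.91, c51340_g4_i1 with 0.83, c49312_g1_i1 with 0.74, c51340_g3_i1 with 0.73 and c45707_g4_i1 with 0.51. In the third libraries, c50146_g3_i1 went the other way, from 12.5 to 8.01, where libraries 1 and 2 went from 5.33 and 7.33 to 16.6 and 16.7. So did c48385_g2_i2, from 18.1 to 12.0 against 10.1 and 10.7 to 23.2 and 25.4. The spread in this fit is that between 2 libraries of 1 tag set, so its p-values do not speak for the third. The members were chosen with library 3 in, and only 9 of them met the rule in libraries 1 and 2 alone. For c35216_g1_i2 and c25113_g1_i1 these libraries gave 1.82 and 4.22, and 4.85 and 2.17, in L2H at 0h, under the minimum of 5. Library 3 brought both in, so their low start in this fit follows from the choice. The count of members called here is therefore partly fixed by the rule and is a description.

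The same fit called 3 of 15 members between H2L 0h and 4h, all lower at 4h, against 23.2% of transcripts tested. These were c47504_g2_i1, with a log2 change of -1.25, c46192_g1_i1 with -0.62 and c51340_g3_i1 with -0.50. It called 0 of 15 between H2L 0h and 24h, against 21.4%, and 4 of 15 between L2H 0h and 24h, against 20.2%. Of those 4, c25113_g1_i1 (1.79), c35216_g1_i2 (1.59) and c45707_g4_i1 (0.68) were higher at 24h and c46192_g1_i1 (-0.92) was lower. The interaction was called in 9 members for the 4h change, all above 0, against 26.3%, and in 3 for the 24h change, against 21.2%. The counts at 24h and the count in H2L at 4h were near or below the share of all transcripts. The 4h count of the interaction is limited by the choice of members in the same way as that in L2H.

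When 2 libraries alone were dropped, the third of L2H at 0h and at 4h (an alternative added once the data had been seen), limma called 4 of 15 members between L2H 0h and 4h, against 14.0%, and 2 between L2H 0h and 24h, against 7.98%. The 4 were c35216_g1_i2, c25113_g1_i1, c48385_g2_i2 and c50146_g3_i1, all higher at 4h. Of the 2 at 24h, c35216_g1_i2 was higher (1.47) and c46192_g1_i1 lower (-1.05). The interaction was then called in 7 members for the 4h change, against 17.1%, and in 2 for the 24h change, against 11.9%. In that fit the L2H groups at 0h and 4h hold 2 libraries each. The members were again chosen with the dropped libraries in, and only 7 of the 15 met the rule without them. These counts are therefore descriptions too.

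The identifiers give 1 further feature that the rule did not use. Their first part names an assembly component, a set of sequences that the assembler joined and that may share reads. The 15 members fall into 13 components, and 9 members have another transcript of their component in the table. The members of the pairs c51340_g3_i1 with c51340_g4_i1 and c42998_g1_i1 with c42998_g2_i1 followed each other over the 18 libraries, with Pearson's r of 0.991 and 0.973 on the log2(value + 1) scale. Part of each r follows from the rule, which set both partners higher in L2H, and no r within an arm is given. Each pair shares its libraries and possibly its reads, so it counts as less than 2 independent transcripts.

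**Figure D4:**
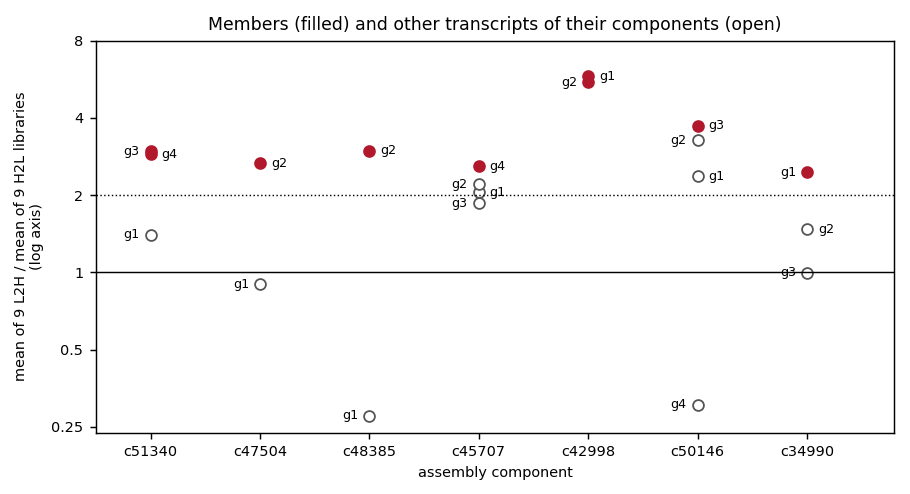
Ratio of the mean over 9 L2H libraries to the mean over 9 H2L libraries (log axis) for members (filled) and other transcripts of the same component (open), labelled by the second part of the identifier. All members lie above the dotted line at 2, and the others range from 0.277 to 3.28.

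The 11 other transcripts of these components, which are no members, were not uniform. In 7 of them the mean over the L2H libraries was higher, and in 4 at least 2-fold higher. The shares of all transcripts were not counted, so neither count is a result about neighbours. Some of the 11 belong to the same component and may share reads, so they are not independent cases. The transcript c51340_g1_i1 gave arm means of 5.43 in L2H and 3.88 in H2L, a ratio of 1.40, beside about 3-fold for its 2 neighbours in the set. In the component c45707 all 3 other transcripts were higher in L2H, by 2.06, 2.21 and 1.86 times, for c45707_g1_i1, c45707_g2_i1 and c45707_g3_i1. The transcript c47504_g1_i1 had nearly equal arm means, 9.05 and 10.1, but it gave 19.8, 20.1 and 5.65 in L2H at 0h and 5.17, 5.13 and 5.10 at 4h, where the member c47504_g2_i1 gave 12.6, 14.9 and 27.3, then 22.3, 25.2 and 13.5. At 0h the first and second libraries of c47504_g1_i1 were the high ones and the third the low one, the reverse of the member.

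Some neighbours differed between the arms in the opposite direction. The transcript c48385_g1_i1 had a mean of 0.278 in L2H and 1.004 in H2L, a ratio of 0.277, where the member c48385_g2_i2 had 15.3 and 5.15. Its values were from 0 to 0.61 in L2H and from 0.64 to 1.57 in H2L, all low, and its r with the member was -0.819 over the 18 libraries. In the component c50146, which was picked after its values were seen, c50146_g4_i1 stood at 0.624 in L2H and 2.05 in H2L, a ratio of 0.305. Its H2L values were 2.87, 3.38 and 1.10 at 0h, 1.80, 2.99 and 0.99 at 4h and 2.80, 2.37 and 0.11 at 24h, so the third library was the lowest at each time and fell within the L2H range of 0.11 to 1.07 at 4h and 24h.

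In the same component, c50146_g1_i4 stood at 21.8 in L2H and 9.19 in H2L, more abundant than the member c50146_g3_i1, and its lowest L2H mean was 1.92 times its highest H2L mean, just short of the rule. Its L2H values ran from 13.6 to 29.3 and its H2L values from 7.99 to 11.3, so its arms did not overlap either. The transcript c50146_g2_i1, at 3.99 and 1.22, missed both the minimum of 5 and the 2-fold limit of the rule. Its lowest L2H mean was 2.75, or 1.75 times its highest H2L mean. The sequences of these transcripts were not used here, so whether members and neighbours are parts of 1 transcript, variants of 1 gene or different genes was not tested.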

How the data were processed

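Total RNA of 18 Dunaliella salina libraries was sequenced by the authors. The submitters' processing notes name FastQC, Bowtie2 and RSEM without versions. The authors deposited 1 table of an abundance signal per assembled transcript. Its values have decimals and sum to between 749880 and 842410 per library, as length- and depth-scaled RSEM output can, but no source used here says if they are FPKM or TPM. They are not read counts, and a count model was not used. Titles matched every column to a sample, leaving 0 unmatched.

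Members were found from group means of 3 libraries. Testing was limited to the 34166 of 43236 transcripts (79.0%) that reached 1 in 3 or more libraries. With R 4.3.3, limma 3.58.1 modelled log2(value + 1) by the 6 group means, with an abundance trend in its prior, and two-sided p-values were adjusted by Benjamini-Hochberg over all tested transcripts. All 15 members are described, with the most abundant, the widest ratios, those called, those near the limits and those sharing a component in detail; other components than c51340, c47504, c48385 and c45707 were picked after their values were seen. Members and tests were chosen with earlier results of these data known. Gene lists could not be applied, since no identifier carries a gene name.

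Alternatives changed the pseudocount (0.1 or 5), the filter (none, or a minimum of 10), quantile normalization, a replicate block, the libraries used and the limits of the rule.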

Additional observations from a re-analysis of the deposited data

Results flagged for a closer look

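The 4h change of c35216_g1_i2 differed between the arms, by 2.72 on the log2 scale (limma interaction, adjusted p = 0.0313). The rule that chose the members used the 4 group means of this contrast, so the value is a description and its p is no independent evidence. The L2H libraries went from 1.82, 4.22 and 21.3 to 38.4, 38.9 and 15.8, and the H2L libraries from 5.59, 2.73 and 4.04 to 2.60, 2.14 and 2.08. The third L2H library went the opposite way from the other two. The call was kept under 18 of 27 alternatives and lost under 9, with changes from 1.84 to 3.98 and adjusted p from 4.24e-05 to 0.342. The 0.342 came with libraries 1 and 2 averaged, a fit that called 14 of all 34166 transcripts in this contrast.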

How the results depend on the processing

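The rule found 15 members. It found 8 with a minimum mean of 10, 69 and 0 with minimum ratios of 1.5 and 3, 29 in libraries 1 and 2 only, 7 without library 3 of L2H at 0h and 4h (chosen after seeing the data), and 9 to 26 without any 1 library (9 without L2H 0h library 3, 26 without H2L 0h library 3). The other alternatives kept it within 1.5 times, though the median of 3 columns shared only 10 members and library 3 only shared 0.

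Limma called 0, 0, 1 and 0 members for H2L 4h, H2L 24h, L2H 4h and L2H 24h against 0h, and 1 and 0 for the difference between arms in the 4h and 24h changes. In libraries 1 and 2 only these were 3, 0, 9, 4, 9 and 3, and without library 3 of L2H at 0h and 4h they were 0, 0, 4, 2, 7 and 2. Members were chosen with the dropped libraries in, so these counts are descriptions. The single L2H 4h call was lost (0) with a pseudocount of 0.1, no filter, libraries 1 and 2 averaged and the replicate block, and the interaction call (0) with libraries 1 and 2 averaged. Over all transcripts the averaged fit called 497, 24, 0, 0, 14 and 43 in the same order. The main fit called 4104, 2623, 765, 474, 3484 and 2200. Without any 1 library the counts of members were 0 to 1, 0 to 0, 0 to 2, 0 to 1, 0 to 3 and 0 to 1. The 1 in H2L at 4h is c47504_g2_i1 without H2L 4h library 3. The L2H 4h change of c35216_g1_i2 was lost under 20 of 27 alternatives, 16 of them leaving out 1 library, including libraries of other groups that enter only through the spread. Its range was 1.46 to 3.37, adjusted p 1.83e-05 to 0.930. With the replicate block, 1 member was called in H2L at 24h, c41294_g1_i4. The block also took the calls over all transcripts in L2H at 4h from 765 to 0, and the adjusted p of c35216_g1_i2 there was 0.0672. In the other comparisons the calls rose under the block, for example from 474 to 792 in L2H at 24h. The L2H 4h count at an unadjusted p under 0.05 rose from 6213 to 6935. Leaving out H2L 0h library 2 also took the L2H 4h calls to 0, so this loss is not particular to the block. Libraries of 1 number share title tags between 0h and 4h, but what a tag marks is not stated. Deviations of same-numbered libraries from their group means correlated by 0.0726 to 0.259 in H2L and by -0.182 to 0.0639 in L2H, over 0.1 in 4 of 12 pairs, so the numbers were not taken to pair the samples. The 2 signed changes of c35216_g1_i2 kept their sign under all 27 alternatives, and the other members enter these alternatives only as counts of calls. Each of these fits held library 1 or 2 of L2H at 0h and 4h. In library 3 of L2H the transcript fell, from 21.3 at 0h to 15.8 at 4h. The kept sign of the L2H change therefore does not speak for library 3. The absolute depth is unknown, which limits the ratios of members with H2L values under 1.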
